A study of Mus musculus with 15 samples.

Results

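The homeobox genes of the Hoxa, Hoxb, Hoxc and Hoxd clusters were examined in leukaemic mouse spleens (acute promyelocytic leukaemia, APL). Members were all genes whose listed symbol was Hoxa, Hoxb, Hoxc or Hoxd followed by a number, read only through probesets that carried 1 gene symbol; antisense entries were left out. This gave 33 genes among 16299 named genes, 9 of Hoxa, 10 of Hoxb, 8 of Hoxc and 6 of Hoxd, and 197 probesets among 208397. Hoxa13, Hoxc11, Hoxd8 and Hoxd12 were not analysed here, and Hoxd4 shares its probesets with Hoxd3 and was not a member.

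The series holds 15 specimens of Bl/6 Taconic mice, all spleen with APL and all hybridised as total RNA to a mouse exon array, so the labels give 1 group and no treatment, allele, time or age. No healthy spleen, purified cell fraction or other leukaemia was analysed here, and the labels name neither the transgene nor the cells in which it would act. They do not say that each specimen came from its own animal, so every p-value measures only the spread between these arrays, which may be technical. Tumours carry either a 4-digit number (10 tumours) or a 2-digit number (5 tumours), whose meaning is not stated.

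Hox proteins are transcription factors that bind DNA through a homeodomain, usually together with Pbx and Meis partners. Their genes lie in order along each cluster, and in the embryo and in blood formation genes near the 3′ end of a cluster are used differently from those near the 5′ end. Trithorax group proteins such as menin and its partners keep the clusters active, and Polycomb group proteins keep them silent. In haematopoiesis, Hoxa9, Hoxa10, Hoxb3 and Hoxb4 are best known from stem and progenitor cells, and human APL is known among the acute myeloid leukaemias for low HOX levels. The protein altered in APL, retinoic acid receptor alpha, binds the half-site AGGTCA, and several Hox promoters are textbook targets of retinoic acid.

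RefSeq sequence of assembly GRCm38.p6 gave 20 windows of the 250 bases before a start site for 18 of the 33 members. They were searched on both strands for AGGTCA, which was present in 4 of 20 (20.0%) against 4607 of 32851 windows of the same length over all genes. The 4 windows are shown because they hold the letters read by the receptor of this disease. Each run is 60 bases of the plus strand, 5′ to 3′, and the capitals mark the match, which in all 4 lies on the opposite strand and so reads TGACCT.
Hoxb4, chr11:96318159-96318218: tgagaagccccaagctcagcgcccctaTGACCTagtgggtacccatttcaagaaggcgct
Hoxc4, chr15:103034222-103034281: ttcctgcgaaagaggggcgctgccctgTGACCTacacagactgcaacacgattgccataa
Hoxd10, chr2:74691795-74691854: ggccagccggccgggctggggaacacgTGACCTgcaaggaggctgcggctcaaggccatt
Hoxd3, chr2:74711805-74711864: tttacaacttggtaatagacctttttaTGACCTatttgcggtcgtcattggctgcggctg
Of these 4 genes, 1 (Hoxd10) was detected by the limit defined next, and of all 18 genes with a window 5 were. The motif TGATNNAT, the composite of Hox and Pbx binding, was present in 4 of the 20 windows (20.0%, before Hoxa2, Hoxb1, Hoxb8 and Hoxd11) against 7.68% of all. A match describes letters in a window and no binding was measured.

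Most Hox genes lay in the lower part of the intensity range and varied little between tumours. A gene's level is the median over its probesets of the log2 intensity, and the detection limit was set at 6.41, the 40th percentile of the mean levels of the named genes; genes with a higher mean are called detected. By this limit 9 of 33 Hox genes (27.3%) were detected, where 60% of all named genes were, as the definition fixes. The median Hox level was 6.06 (from 4.96 to 7.81) against 6.79 over all named genes. Olfactory receptor genes, which are not expected in leukaemic spleen, had a median of 4.49, and 7.88% of 888 such genes passed the limit. Above the 95th percentile of those receptors (6.71), a stricter bar, stood 6 Hox genes. Which genes made up the 9 depended on how probesets were summarised. Hoxa4, Hoxa7, Hoxb3, Hoxb6 and Hoxd10 were detected in all 6 ways of summarising probesets or treating arrays, the median itself included. Centring the arrays leaves each mean over the tumours unchanged, so that setting could not alter a call. Of these genes Hoxa7 (6.50) did not reach the receptor bar of 6.71. With the mean over probesets in place of the median (limit 6.36), Hoxb9 (6.15) and Hoxd11 (6.29) were below the limit, and Hoxb8 (6.95) and Hoxd1 (6.66) above it. When only probesets above the 25th percentile of intensity were kept (limit 7.05), Hoxa10 (6.82), Hoxb1 (6.77) and Hoxd11 (6.71) were below, and Hoxb4 (8.77), Hoxb7 (7.61) and Hoxc8 (7.28) above. A level depends on how well the probes of a gene hybridise, so the order of levels between genes is not an order of abundance. In bulk tissue, moreover, fewer cells with a transcript and less of it per cell cannot be told apart.

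**Figure D1:**
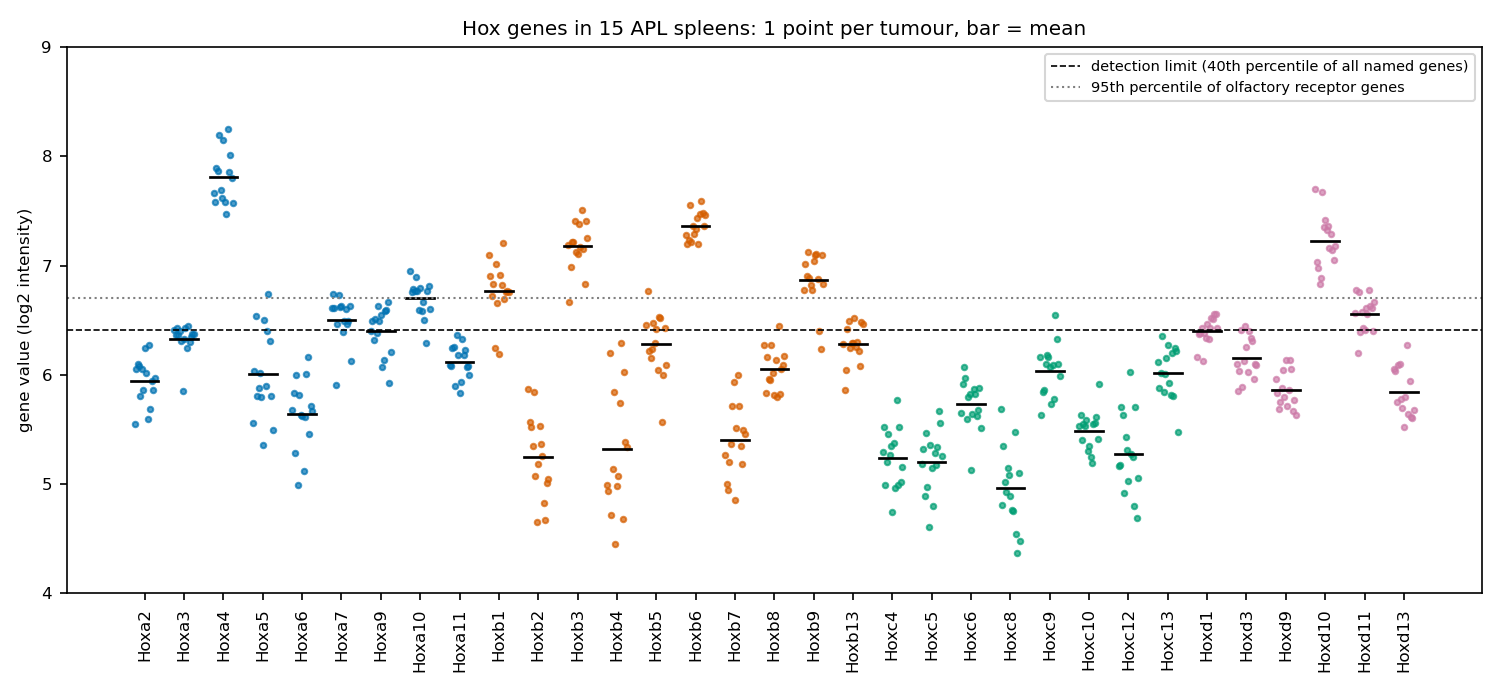
Log2 gene value of the 33 Hox genes in each of 15 APL spleens, by cluster and paralog number; each point is 1 tumour, each bar the mean, the dashed line the detection limit (6.41) and the dotted line the 95th percentile of olfactory receptor genes (6.71). Hoxa4 lies above both lines in all 15 tumours, while all 8 Hoxc genes have their mean below the detection limit. By other summaries of the probesets the detected genes differ, and without dim probesets Hoxc8 is among them, through 1 probeset.

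In the Hoxa cluster 3 of 9 genes were detected, and the cluster's median was 6.33. Hoxa4 had 7.47 in tumor_26, a median of 7.80 and 8.25 in tumor_9514 (mean 7.81 ± 0.25 SD, n = 15). Hoxa7, a member from the middle of the cluster, ran from 5.91 in tumor_9523 through a median of 6.61 to 6.74 in tumor_31 (6.50 ± 0.22, SD, n = 15) and was above the limit in 12 tumours. Hoxa10, which with Hoxa9 acts in myeloid progenitors, ran from 6.29 in tumor_9520 through 6.77 to 6.95 in tumor_9504 (6.70 ± 0.17, SD, n = 15) and was above it in 14. In both genes most tumours lay in a narrow range above the limit.

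Hoxa9, the family member most often studied in myeloid leukaemia, sat at the limit, with a mean of 6.40 ± 0.22 (SD, n = 15). It was lowest at 5.93 in tumor_33, had a median of 6.49, was highest at 6.67 in tumor_9508, and exceeded the limit in 8 of 15 tumours. Hoxa5, also a regulator of myeloid differentiation, had the second largest SD of the family (6.01 ± 0.41, SD, n = 15), from 5.36 in tumor_36 through 5.90 to 6.74 in tumor_9520, with 3 tumours above the limit. Hoxa3 was above it in 3 tumours too, with a highest value of 6.44 (mean 6.33 ± 0.14). The remaining members, Hoxa2, Hoxa6 and Hoxa11, had means from 5.64 to 6.12 and were above the limit in no tumour.

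In the Hoxb cluster 4 of 10 genes were detected, and all 4 were also above the olfactory receptor bar. Hoxb6, known from erythroid and myeloid progenitors, was the steadiest of them, from 7.19 in tumor_26 through 7.36 to 7.59 in tumor_9520 (7.37 ± 0.13, SD, n = 15). Hoxb3, a stem cell gene, ran from 6.67 in tumor_31 through 7.19 to 7.51 in tumor_9514 (7.18 ± 0.22, SD, n = 15). These 2 genes were above the limit in all 15 tumours. Hoxb9 ran from 6.24 in tumor_9508 through 6.88 to 7.12 in tumor_9523 (6.87 ± 0.26, SD, n = 15), and Hoxb1, whose embryonic role is in the hindbrain, from 6.19 in tumor_36 through 6.77 to 7.21 in tumor_9514 (6.77 ± 0.27, SD, n = 15). Each of these was under the limit in 2 tumours.

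Hoxb4, used experimentally to expand blood stem cells, had the largest SD of the 33 genes, and its median over probesets reached the limit in no tumour. It was 4.45 in tumor_9492, had a median of 5.14 and reached 6.29 in tumor_9514 (5.32 ± 0.58, SD, n = 15). Without dim probesets its mean was 8.77, above the limit of 7.05 and the highest of the family in that setting. That value rests only on its brightest probesets, 4496223 (10.07) and 4901243 (7.465). Hoxb2 had the third largest SD (5.25 ± 0.38) and no tumour above the limit. Hoxb8 crossed it in tumor_9514 alone (6.45, mean 6.06 ± 0.20), Hoxb13 in 5 tumours (mean 6.28 ± 0.18) and Hoxb5 in 7 (mean 6.28 ± 0.29), while Hoxb7 was above it in none (mean 5.40 ± 0.34).

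No Hoxc gene was detected by the median over probesets, and the cluster's median of 5.39 was the lowest of the clusters. Without dim probesets 1 was, Hoxc8 at 7.28, and the Hoxc median was again the lowest (6.43). In that setting Hoxc8 was read through 1 probeset only, its brightest (4320721). Means ran from 4.96 ± 0.37 for Hoxc8 to 6.04 ± 0.24 for Hoxc9 (SD, n = 15). The only value of a Hoxc gene above the limit was Hoxc9 in tumor_9520, at 6.54. Hoxc4, Hoxc5, Hoxc6, Hoxc10, Hoxc12 and Hoxc13 lay between these means and under the limit in every tumour.

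In the Hoxd cluster 2 of 6 genes were detected. Hoxd10, which patterns limbs and spinal cord, ran from 6.83 in tumor_9523 through 7.18 to 7.70 in tumor_9504 (7.22 ± 0.26, SD, n = 15) and was above the limit in every tumour. Its neighbour Hoxd11 ran from 6.20 in tumor_9495 through 6.58 to 6.77 in tumor_31 (6.56 ± 0.16, SD, n = 15), above it in 11. Hoxd1 was just under the limit with the smallest SD of the family (6.40 ± 0.13), and 8 tumours exceeded it. Hoxd3 exceeded it in tumor_9492 alone, at 6.44 (mean 6.16 ± 0.19), and Hoxd9 and Hoxd13 in none (means 5.86 and 5.84).

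Detected genes were spread over the paralog positions. Of paralogs 1 to 4, 3 of 10 were detected (median level 6.24), of paralogs 5 to 8, 2 of 10 (5.87), and of paralogs 9 to 13, 4 of 13 (6.12). Between tumours, from 8 genes (tumor_9500) to 14 genes (tumor_9514) stood above the limit, and the median level of the family ran from 5.96 to 6.30. The tumour with most genes above the limit, tumor_9514, held the highest value of 8 members, and tumor_36 the lowest of 7. Of the 15 arrays, tumor_9509 and tumor_9514 differed most from the rest. Their gene values correlated at 0.964 with each other and at most at 0.949 with any other array. Without both arrays the same number of Hox genes, 9, was detected. No member had an SD above 1, where 113 of all named genes did, and the median SD of the family was 0.23 against 0.29 over all named genes.

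The genes beside the clusters served as a measure of the surrounding chromosome. Gene order was taken from RefSeq GRCm38.p6, where the Hoxa, Hoxb, Hoxc and Hoxd clusters lie on chromosomes 6, 11, 15 and 2. Of the 4 nearest measured protein-coding genes on each side of each cluster, 29 of 32 were detected, with a median level of 8.50. Among all named genes 60% were. All 8 flanking genes of Hoxa and all 8 of Hoxd were detected (medians 8.43 and 8.74), as were 7 of 8 around Hoxc (8.77) and 6 of 8 around Hoxb (8.03). Next to Hoxa2 lay Skap2, an adaptor protein of haematopoietic cells, at 9.15 ± 0.32, and next to Hoxc4, past Smug1, lay Cbx5, a heterochromatin protein, at 10.12 ± 0.32 (SD, n = 15). The homeobox genes Evx1 and Evx2, at the 5′ ends of Hoxa and Hoxd, had 7.67 ± 0.16 and 7.24 ± 0.18. Undetected among the flanking genes were Calcoco2 (4.51) and Ttll6 (5.21) beside Hoxb and Smug1 (6.09) beside Hoxc. These levels come from different probes, so the contrast is between positions relative to the detection limit, and no test was made of it.

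**Figure D2:**
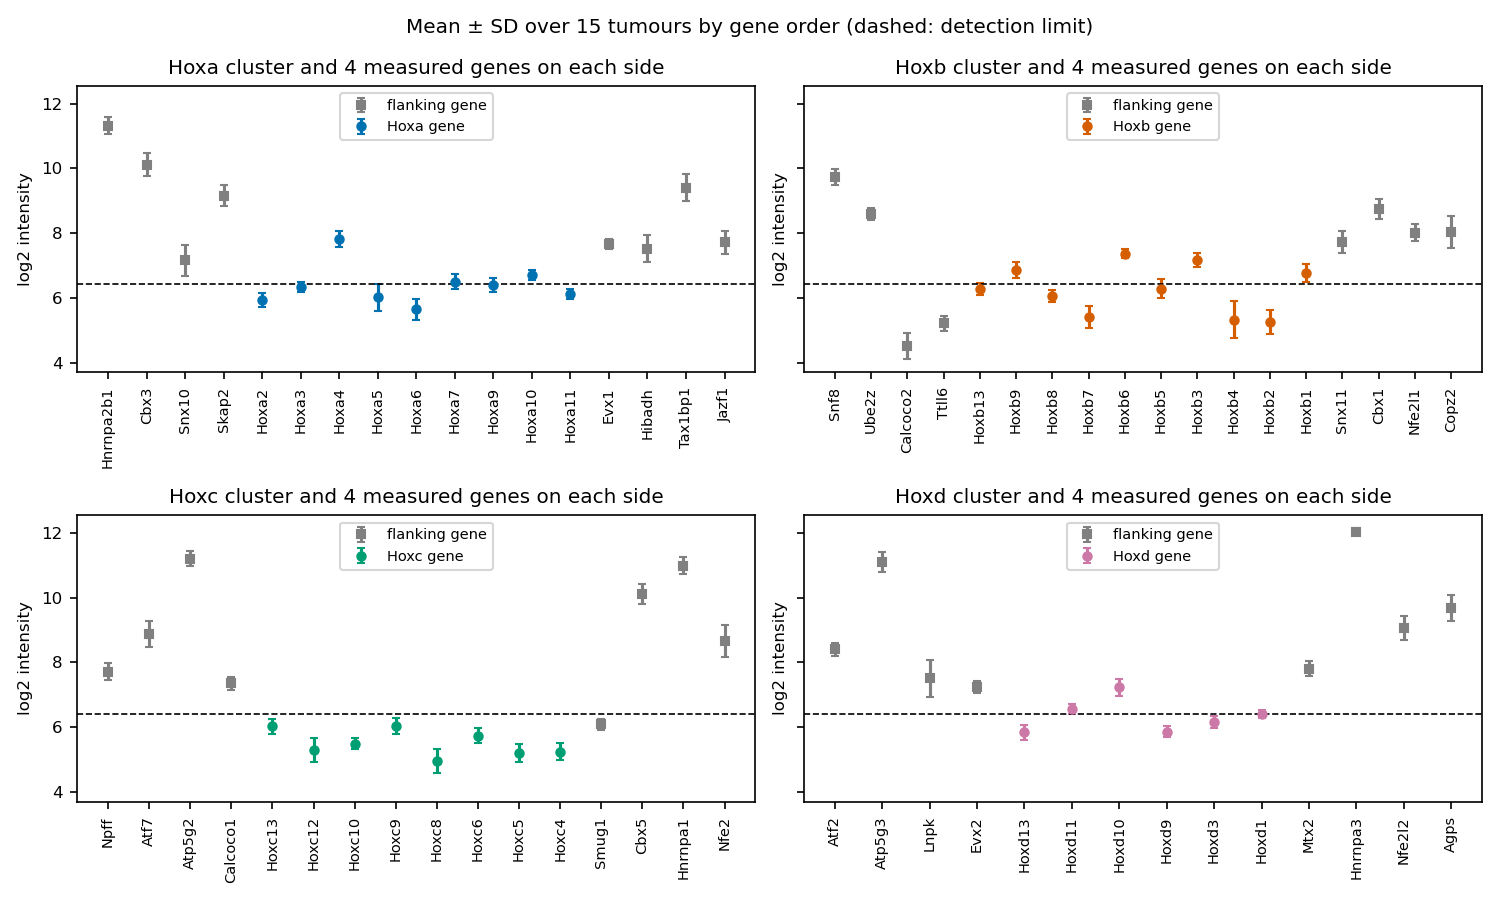
Mean log2 gene value ± SD over 15 tumours in gene order (by start coordinate) along the 4 clusters, coloured circles for Hox genes and grey squares for the 4 nearest measured genes on each side; the dashed line is the detection limit (6.41). Squares are above the line for 29 of 32 flanking genes, circles for 9 of 33 Hox genes, where 60% of all named genes are above it.

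Within a gene, probesets differed widely. Hoxa7 held probesets with means from 2.45 to 10.89 and Hoxb3 from 5.36 to 12.66, a span of 8.44 and 7.30 on the log2 scale. Of the 197 Hox probesets, 22 (11.2%) had a mean above 8, against 28.5% of all single-symbol probesets, 2.0% of olfactory receptor probesets and 3.85% of probesets of other sensory, keratin-associated and defensin genes. Bright probesets occurred in genes called undetected as well: probeset 4763874 of Hoxb8 had 10.45 ± 0.30, probeset 4496223 of Hoxb4 10.07 ± 0.14, probeset 4578630 of Hoxd1 9.77 ± 0.21 and probeset 4313058 of Hoxa5 9.32 ± 0.48 (SD, n = 15). The brightest of the family, probeset 5126208 of Hoxb3, was nearly constant, from 12.44 to 12.85. A gene called undetected here can thus have single probesets with high intensity, and whether those read the spliced transcript was not tested.

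**Figure D3:**
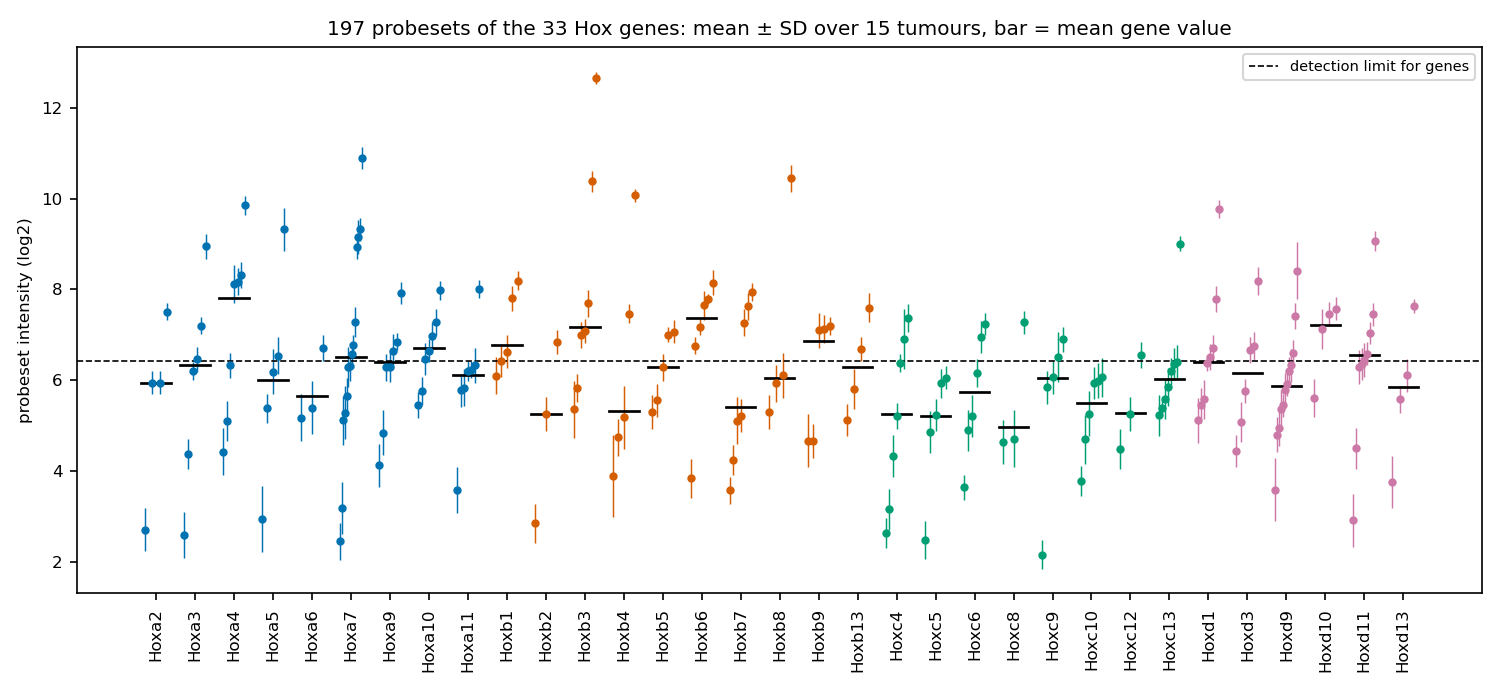
Mean log2 intensity ± SD over 15 tumours of each of the 197 Hox probesets, 1 point per probeset, with the mean gene value as a bar and the detection limit (6.41) dashed. Most genes span several log2 units, up to 8.44 in Hoxa7, and the brightest probeset, of Hoxb3, has a mean of 12.66.

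Probesets of the same Hox gene hardly moved together across the tumours. The mean correlation between probesets of a gene had a median of 0.01 over the 33 genes, with a range from -0.16 to 0.27, and exceeded 0.3 in 0 of 33. That median was -0.03 over the 9 detected Hox genes and 0.02 over olfactory receptor genes with at least 3 probesets. Among all named genes with at least 3 probesets 31.9% exceeded 0.3, among olfactory receptor genes 4.75% and among detected genes 48.0%. Among detected genes whose SD was in the range of the 9 detected Hox genes (0.13 to 0.27), 18.3% did. For comparison, it was 0.71 for Mpo, 0.80 for Cd34 and 0.46 for Ezh2. The correlation between means of alternate probesets (split-half r) exceeded 0.5 in 2 of 33 members, Hoxa7 (0.71) and the undetected Hoxc12 (0.58), against 54.8% of all named genes with at least 3 probesets. These correlations are descriptions over 15 arrays that share all probes, and they say how much of the small spread of a Hox gene is common to its own probesets.

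Hoxa7, the detected member with a split-half r above 0.5, is read through 14 probesets, more than any other member. Among detected genes with as many probesets 83.7% exceeded 0.5, and its mean correlation between probesets was 0.15, next to 0.16 for Hoxb3, so the value does not set Hoxa7 apart. Of its 14 probesets, 11 were below their own median in tumor_9523 and 11 in tumor_9529, and without those tumours the split-half r was 0.68. Among 9461 other detected genes with at least 3 probesets, the levels most like Hoxa7 over the 15 tumours were those of Ceacam10 (r = 0.85), Plpp7 (r = 0.83) and Wfdc21 (r = 0.82). Ceacam10 was at 7.20 and 7.21 in tumor_9523 and tumor_9529 against a highest value of 9.60, so the likeness leaned on those tumours: without them r was 0.58 for Ceacam10, 0.51 for Plpp7 and 0.71 for Wfdc21. With the mean over probesets in place of the median, r was 0.43, 0.31 and 0.41. These genes were picked for their likeness, so no test is given.

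The largest shared variation among Hox probesets followed that of olfactory receptor probesets. The leading pattern (first principal component) of the 2153 receptor probesets held 16.2% of their variance and split the tumours at a gap of 0.27, the next largest gap being 0.11. On the upper side lay tumor_9509, tumor_9492, tumor_9520, tumor_26, tumor_9504 and tumor_29, 4 with a 4-digit and 2 with a 2-digit number. The leading pattern of the 197 Hox probesets, which held 18.7% of their variance, had the same 6 tumours at its top. Since the tumours fall into 2 sets of values, no correlation over all 15 is given. Within the upper 6 it was r = 0.95 (rho = 0.83), and within the other 9 r = 0.90 (rho = 0.83). Without tumor_9509 the first was 0.78 over 5 tumours, and without tumor_9514 the second was 0.78 over 8. Probesets of other sensory, keratin-associated and defensin genes also had those 6 tumours at the top of their leading pattern. Its r with the receptor pattern was 0.64 within the upper 6 and 0.73 within the other 9. Without tumor_9509 and tumor_9514 these values were 0.31 and 0.40. Whether probesets of other genes share the pattern was not tested. The patterns come from the same arrays, and their source was not tested.

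**Figure D4:**
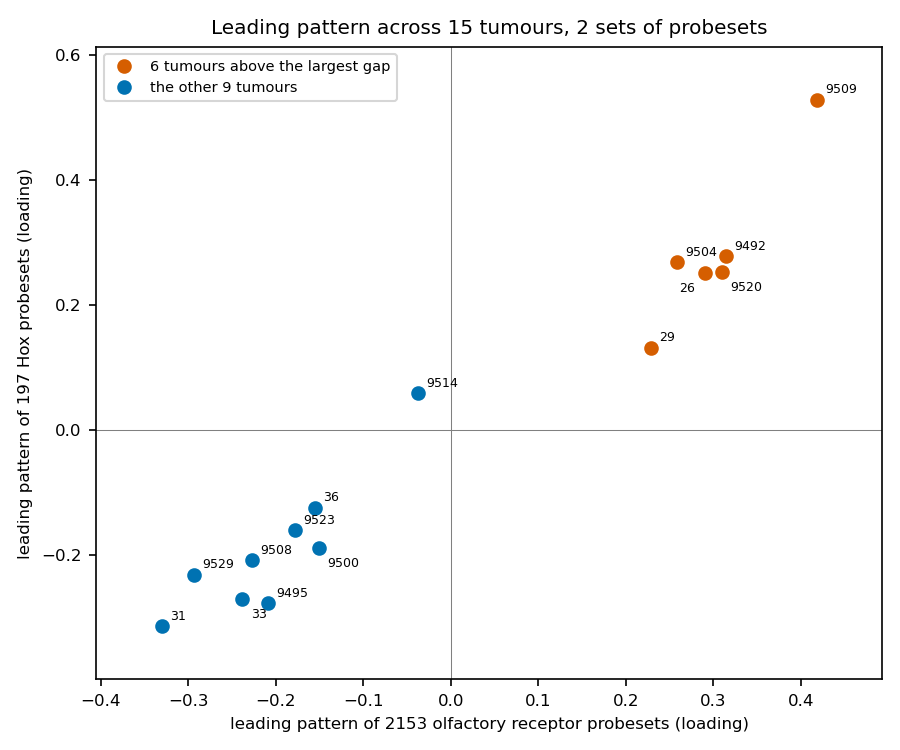
Loading of each of the 15 tumours on the leading pattern of 2153 olfactory receptor probesets (horizontal) and of 197 Hox probesets (vertical), both without units. The 6 tumours on the upper side of the largest receptor gap have the 6 highest Hox loadings, from 0.13 for tumor_29 to 0.53 for tumor_9509.

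Few single Hox probesets separated those sets of tumours. In 4 of 197 (2.03%) every one of the 6 tumours was above all the other 9, where 0.709% of all single-symbol probesets were, and in 1 (0.508%) every one was below, where 0.24% were. Probeset 5424822 of Hoxd9 ran from 8.93 to 9.29 in the 6 tumours and from 7.55 to 8.49 in the 9. Probeset 5579790 of Hoxc4 ran from 7.43 to 7.95 and from 5.83 to 6.88. For probeset 5338010 of Hoxd10 the ranges were 7.31 to 7.93 and 6.65 to 7.25, and for probeset 4951953 of Hoxb6 8.17 to 8.67 and 7.67 to 8.11. Probeset 4577501 of Hoxa4 went the other way, from 7.47 to 7.86 in the 6 and from 8.22 to 8.66 in the 9, although the bright probeset 4759541 of the same gene overlapped (9.86 to 10.22 and 9.51 to 9.94). The sets were drawn from receptor values and are no groups of the study.

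The 9 detected Hox genes gave 36 pairs across the 15 tumours. With Pearson's r and a two-sided permutation test, 0 of 36 pairs passed an adjusted p (Benjamini-Hochberg) of 0.05, and with Spearman's rho also 0, while 3 and 2 had an unadjusted p below 0.05. A size of r of at least 0.514 was reached by 3 pairs (8.33%), against 14.5% of all pairs of detected genes. Within a cluster 0 of 10 pairs reached that size, with a median r of 0.11, 8 positive values and a range from -0.39 to 0.32. Between clusters 3 of 26 pairs did, with a median r of -0.09 and 10 positive values. The difference between both kinds of pair was not tested. Probesets of the 9 genes hardly moved together. The median of their mean correlation was -0.03, against 0.29 over detected genes with at least 3 probesets. Levels with so little shared spread can hardly correlate, so the low counts do not show that these genes vary independently.

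Those 3 pairs had the same adjusted p of 0.389. Hoxa7 and Hoxb6 had r = -0.56 (permutation p = 0.0265) and rho = -0.51 (permutation p = 0.0577), and r was -0.35 when the 2 tumours with the most extreme Hoxa7 levels were left out. Hoxa10 and Hoxb6 had r = -0.56 (permutation p = 0.0267) and rho = -0.41 (permutation p = 0.132), with r = -0.25 without the 2 farthest. Hoxb1 and Hoxd11 had r = 0.56 (permutation p = 0.0324) and rho = 0.55 (permutation p = 0.0353), with r = 0.46 without the 2 farthest. Within the 10 tumours with a 4-digit number the 3 values of r were -0.53, -0.64 and 0.52. Within the 6 tumours of the upper receptor side they were -0.36, -0.72 and 0.35, and within the other 9 -0.67, -0.51 and 0.61. Each pair kept its sign in all these sets, and none passed the correction.

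**Figure D5:**
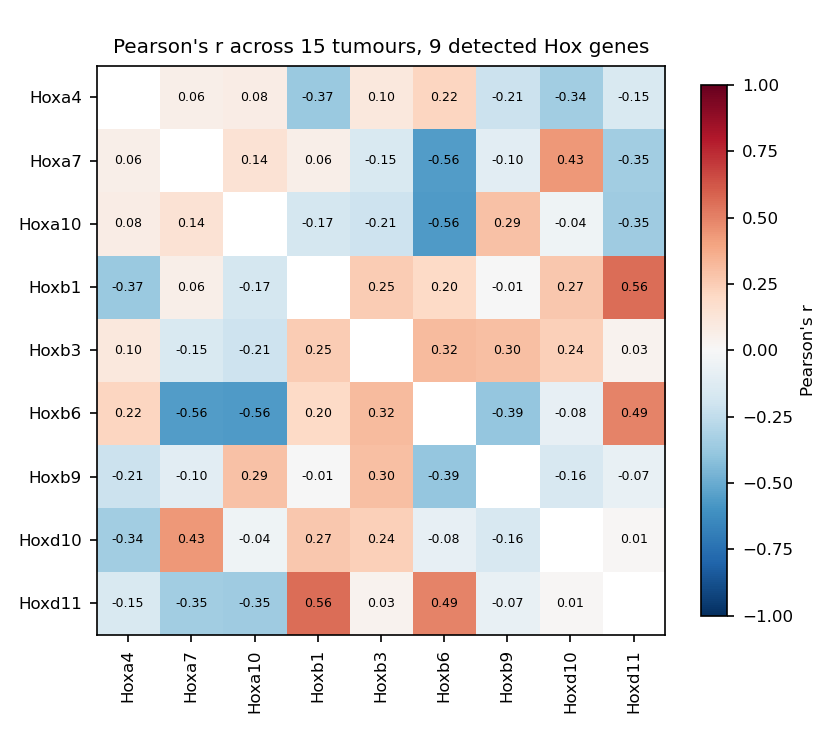
Pearson's r across 15 tumours between the levels of the 9 detected Hox genes, written in each cell and coloured from -1 (blue) to 1 (red). The values run from -0.56 to 0.56 and 0 of 36 pairs passed the adjusted threshold.

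Transcripts of genes that work with the Hox family or act on it were detected to different degrees, and no protein was measured. Of 46 listed genes 38 were measured and 32 detected: 4 of 7 DNA-binding cofactors, 12 of 14 activators, 12 of 12 Polycomb repressors and 4 of 5 targets. Of all named genes 60% were detected, as the limit fixes, and the cofactors were near that share. Meis1, the cofactor that acts with Hoxa9 in leukaemia models, was undetected, with a mean of 5.53 ± 0.26 and a highest value of 5.89 in tumor_26. Among the Pbx cofactors measured, Pbx2 (7.60 ± 0.27) and Pbx4 (7.85 ± 0.33) were above the limit in all 15 tumours and Pbx3 (6.49 ± 0.31) in 10. The Meis relative Pknox1 was detected (6.95 ± 0.18), and Meis2 (5.08) and Pknox2 (6.17) were not.

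Every measured Polycomb gene was detected. The subunits of Polycomb repressive complex 2, which methylates histone H3, had levels of 9.11 ± 0.31 for the enzyme Ezh2, 9.31 ± 0.32 for Suz12 and 8.91 ± 0.30 for Eed. Bmi1, of Polycomb repressive complex 1, had 8.01 ± 0.28. Among activators, Men1, which encodes menin, had 7.71 ± 0.51 and Psip1, its chromatin tether, 8.62 ± 0.32, and Kmt2a was not analysed here. Of the caudal-type genes that act upstream of Hox genes, Cdx2 was detected (7.24 ± 0.14), and Cdx1 (6.13) and Cdx4 (4.99) were not. The 7 probesets of Cdx2 hardly moved together (mean correlation 0.06, split-half r 0.03), so its call rests on level alone. Of the listed targets, Myb (10.35 ± 0.40) and Cd34 (9.69 ± 0.46) were detected, and Flt3 (6.30 ± 0.57) exceeded the limit in 3 tumours.

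Levels of these genes were set against the 9 detected Hox genes in 279 pairs, leaving Kdm6a apart. By Pearson's r 0 of 279 passed the adjusted threshold in a permutation test (lowest adjusted p 0.246), by Spearman's rho 1 did, and 16 and 17 had an unadjusted p below 0.05. A size of r of at least 0.514 was reached by 5.73% of the pairs, against 15.4% of pairs of these same genes with all detected genes. Because the probesets of the 9 Hox genes hardly moved together, the lower share does not show that Hox levels are unrelated to these genes. Of the 16 pairs, 12 were negative and 4 positive.

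The pair past the threshold by rank was Hoxb9 with Cd34, a surface protein of stem and progenitor cells. It had rho = 0.85 (permutation p = 0.00017, adjusted p = 0.0474) but r = 0.60 (permutation p = 0.0178, adjusted p = 0.686). With the 2 tumours of most extreme Hoxb9 level left out, r was 0.86, within the 10 tumours with a 4-digit number 0.46, within the 6 tumours of the upper receptor side 0.72 and within the other 9 0.51. With the mean over probesets in place of the median, r was -0.29, and without dim probesets it was 0.01. The size and sign of this relation thus depended on how the probesets of a gene were summarised. Probesets of Hoxb9 did not move together: their mean correlation was -0.13 and the split-half r was -0.06. Adjusted p by rank over the alternative settings ran from 0.0251 to 0.959.

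By r the largest pair was Hoxd10 with Nup98, a nucleoporin that is a partner of Hox genes in leukaemic fusions. It had r = -0.77 (permutation p = 0.00088, adjusted p = 0.246) and rho = -0.74 (permutation p = 0.00226), with r = -0.59 without the 2 farthest tumours. The value was -0.89 within the 4-digit tumours, -0.77 within the upper 6 and -0.82 within the other 9, and from -0.67 to -0.79 when probesets or arrays were treated otherwise. Its sign recurred in every setting run, and its lowest adjusted permutation p over them was 0.0865 by r and 0.0628 by rho. All settings draw on the same arrays and on the 4 probesets of Hoxd10, so a recurring sign is no separate evidence. Those probesets did not move together: their mean correlation was -0.03 and the split-half r of Hoxd10 was -0.21.

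Next in size were Hoxb1 with Men1 (r = -0.61, permutation p = 0.0161; rho = -0.60, permutation p = 0.0214), Hoxa7 with Npm1 (r = -0.61, permutation p = 0.0161; rho = -0.50, permutation p = 0.0578) and Hoxb1 with Psip1 (r = -0.61, permutation p = 0.0162; rho = -0.37, permutation p = 0.173). All 3 had an adjusted p of 0.686, and r without the 2 farthest tumours was -0.51, -0.58 and -0.38. Within the 4-digit tumours r was -0.59, -0.68 and -0.46. Within the upper 6 it was -0.23, -0.65 and 0.19, and within the other 9 -0.76, -0.63 and -0.75. Without tumor_9509 and tumor_9514, r was weaker for Hoxb1 with Men1, at -0.46, and was -0.60 for Hoxa7 with Npm1. Hoxa4 with Ezh2 had r = -0.58 (permutation p = 0.0248, adjusted p = 0.686) and rho = -0.59 (permutation p = 0.0219), with r = -0.34 without the 2 farthest tumours, -0.44 within the 4-digit tumours, -0.83 within the upper 6 and -0.84 within the other 9.

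Kdm6a, the histone demethylase that removes the Polycomb mark, fell into 2 sets of values. Its level ran from 4.94 to 5.42 in 4 tumours (tumor_9500, tumor_26, tumor_9495 and tumor_9520), and 11 tumours lay from 6.92 to 8.22. The range of each of the 9 detected Hox genes in the 4 tumours overlapped its range in the 11. Hoxa4, for example, ran from 7.47 to 8.19 in the 4 and from 7.57 to 8.25 in the 11. Within the 11 tumours r between Kdm6a and the Hox genes ran from -0.53 for Hoxd10 (permutation p = 0.0955) to 0.50 for Hoxd11 (permutation p = 0.116), rho for the same genes was -0.57 (permutation p = 0.0711) and 0.46 (permutation p = 0.153), and the lowest adjusted p of the 9 was 0.414.

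Markers of the cells a leukaemic spleen can hold were read as lists. All 6 measured promyelocyte markers were detected, with Mpo at 12.91 ± 0.27 and Ctsg at 12.20 ± 0.24. Also detected were 8 of 8 secondary granule genes, 7 of 9 stem and progenitor genes, 7 of 9 spleen stroma genes, 5 of 7 erythroid, 5 of 6 T cell and 4 of 6 B cell genes, with 2 of 8 endothelial and 3 of 5 megakaryocyte genes. By its definition the limit calls 60% of all named genes detected, so a count near that share says little about a cell type. The stroma list, which includes cells in which Hox genes are known to be used, had a narrow score (mean deviation of its detected members from the 15-tumour mean), from -0.17 to 0.13. Its detected genes included Col1a1 (7.40 ± 0.18), Pdgfrb (7.05 ± 0.36) and Col3a1 (6.75 ± 0.13), and the undetected ones were Tcf21 (5.43 ± 0.38) and Pdgfra (5.29 ± 0.12).

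The 7 lists with at least 4 detected genes gave 63 pairs with the 9 Hox genes. By r and by rho 0 of 63 passed the adjusted threshold in a permutation test, and 2 and 5 had an unadjusted p below 0.05. A size of r of at least 0.514 was reached by 3.17% of the pairs, against 7.98% for these lists with all detected genes. The limit from Hox probesets that hardly moved together holds for this share too. The pairs of that size were Hoxa7 with the T cell score (r = 0.57, permutation p = 0.0253; rho = 0.44, permutation p = 0.1) and Hoxb6 with it (r = -0.57, permutation p = 0.0258; rho = -0.54, permutation p = 0.0393), both with an adjusted p of 0.676. Without the 2 farthest tumours r was 0.36 and -0.23. Within the 4-digit tumours it was 0.56 and -0.52, within the upper 6 0.29 and -0.54, and within the other 9 0.77 and -0.65.

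Tumour number was the only label that divides the specimens. In a limma fit of the 10 tumours with a 4-digit against the 5 with a 2-digit number, 0 of 33 Hox genes passed an adjusted p of 0.05, as did 0.0% of all 16299 genes in either direction. With an unadjusted p below 0.05 stood 1 member, Hoxb9, against 1.26% of all genes higher and 1.61% lower in the 4-digit tumours. Its mean was 6.77 in the 4-digit and 7.07 in the 2-digit tumours, a difference of -0.31 (SE 0.12, limma p = 0.0258, adjusted p = 1.0). Hoxa9 went the other way, by 0.24 (limma p = 0.0529, adjusted p = 1.0).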

How the data were processed

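Total RNA of 15 spleens was amplified, labelled with biotin and hybridised to exon arrays, per the labels' protocols. The authors deposited 1 linear intensity per probeset and array, from 2.38 to 19380.5. The submitters' processing notes name RMA (background correction, normalization across arrays, a summary per probeset) and build mm9. Median intensity per array was 107.6 to 128.5, gene values of the arrays correlated at 0.928 to 0.978, and the number of arrays limits the precision.

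Intensities were log2 transformed. Of 229581 probesets, 208397 had 1 symbol, 3965 several and 17219 none. Against RefSeq GRCm38.p6 gene names, 14132 of 16299 symbols matched, 2099 were updated and 68 stayed as listed. Gene values are medians over probesets. Correlations used two-sided permutation tests with 100000 resamples and Benjamini-Hochberg adjustment within each family of pairs. Tumour number was tested with limma 3.58.1 in R 4.3.3, other steps with Python 3.11.15, numpy 2.4.6, pandas 2.3.3 and scipy 1.17.1. Scripts were tested on simulated data.

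Every member was accounted for; by rule, detected members, the 3 with the largest SD and those above the limit in 1 to 3 tumours were described with values. Values of further members, among them Hoxa9, Hoxd1, Hoxb5, Hoxb13, Hoxb7 and Hoxc8, were added after they were seen. Partner genes were named from pairs past the threshold or else the 3 with the largest size of r, with Meis1, Pbx3, Kmt2a, Ezh2 and Kdm6a in any case; 1 further gene of that rule is not reported here. For detected members with a split-half r above 0.5, the 3 most alike genes were named. Members, lists and limits were chosen with earlier results of these data known. Alternatives were the mean over probesets, dim probesets left out, centred or quantile normalized arrays, other detection limits, rank correlation and subsets of tumours.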

Additional observations from a re-analysis of the deposited data

How the results depend on the processing

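The count of detected Hox genes was 9 under the mean over probesets, without dim probesets, with centred or quantile normalized arrays and without tumor_9509 and tumor_9514. The same 9 genes were detected with centred or quantile normalized arrays and without the 2 arrays, 7 of them with the mean and 6 without dim probesets. Centring leaves each mean over the tumours unchanged, so it could not alter the detected genes. The count was 6 with the 95th percentile of olfactory receptor genes as limit and 4 with the 60th percentile of named genes (7.17). The median Hox level was 6.79 when only probesets above the 25th percentile were kept, with the limit then at 7.05. Under that setting 25 of 33 gene levels moved by more than 1 SD, and under the mean over probesets 17 of 33 did. Partner pairs past the adjusted threshold numbered 1 with Spearman's rho and 2 with the mean over probesets, Hoxb6 with Nup98 (r = -0.82) and with Phc1 (r = -0.83), both at adjusted permutation p = 0.0293. With the median those pairs had r = -0.08 and -0.17. Why they differ was not tested. All pairs were drawn from the genes detected by the median. Pairs between Hox genes, pairs with marker lists and Hox genes in the tumour number check numbered 0 past the threshold under every alternative run, with a lowest adjusted p from 0.0785 to 0.778 for the first and from 0.135 to 0.768 for the second. The 9 tumours on the lower receptor side were added as an alternative after seeing the data. No paired analysis was possible because the labels give 1 group. Signal over background limits the undetected genes: their values are no order of low levels.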

Other observations

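Probesets that carry more than 1 symbol were left out of the family. The 13 probesets listed for both Hoxd4 and Hoxd3 had a median level of 5.95 ± 0.22 (SD, n = 15), below the detection limit, with single probesets from 3.98 to 9.39 and a mean correlation between probesets of 0.18. The 1 probeset listed for Hoxa3 and 2700086A05Rik had 3.59 ± 0.59 (SD, n = 15).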
